A study of Arabidopsis thaliana with 12 samples.

Results

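Among 32833 counted loci, 50 were lowered in pxf er erl2 hypocotyls below pxf, er erl2 and wild type (WT) alike. They were chosen from the deposited counts. Counts were scaled to CPM, the counts in each 1000000 of the library's summed counts, and 0.5 was added to each group mean before ratios were taken. A locus was kept when the pxf, er erl2 and WT means were each at least 2 CPM before that addition, each of these means was at least 2 times the pxf er erl2 mean, and every pxf er erl2 library lay below all 9 libraries of the other genotypes. Counting the added 0.5 towards the floor of 2 CPM would have given 56 loci instead of 50. The comparisons of pxf er erl2 with the other genotypes were therefore used to choose the loci, and its values in them are a description without a test.

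All plants were Arabidopsis thaliana in the Columbia-0 background, grown in long days for 3 weeks, and RNA came from the hypocotyl with the top 5 mm of root. The quintuple mutant, pxf er erl2, carries pxy-3, pxl1-1, pxl2-1, er-105 and erl2-1. The pxf mutant carries pxy-3, pxl1-1 and pxl2-1, er erl2 carries er-105 and erl2-1, and WT is Columbia-0. Each genotype had 3 biological replicates, and ERL1, the remaining ERECTA-family gene, was not among the mutated genes. The labels do not say how many plants went into a library.

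PXY is the receptor kinase for the peptide TDIF, made from CLE41 and CLE44, and PXL1 and PXL2 are its closest relatives. ER and ERL2 belong to the ERECTA family of receptor kinases, whose ligands are EPFL peptides. Both families act in the vascular cambium, the layer of dividing cells between xylem and phloem that thickens the hypocotyl. Strigolactones, whose synthesis several of these loci serve, are carotenoid-derived hormones that restrain shoot branching and promote cambium growth in Arabidopsis.

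PXY had 1074, 1003 and 859 counts in pxf er erl2 and 290, 319 and 338 in pxf, against 4214, 4516 and 3789 in er erl2 and 2644, 2718 and 2922 in WT. ER had 145, 119 and 91 counts in pxf er erl2, 872, 865 and 857 in pxf, 105, 105 and 131 in er erl2, and 418, 468 and 384 in WT. Both genes were thus lowest in the genotypes that carry their mutation, while PXL1, PXL2 and ERL2 had 0 to 14 counts in every library, WT included, too few to check a label. Library totals lay between 12012325 and 13333413 in pxf er erl2, between 12893975 and 14716123 in pxf, between 11307735 and 12260181 in er erl2, and between 10507590 and 11823295 in WT.

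The strigolactone enzymes D27, CCD7 and CCD8 and the beta-amylase BAM5 are the members whose upstream sequence is shown, the first 3 because they stand in sequence in 1 pathway and BAM5 because its ratio was the largest. Each line gives the 300 bases before the annotated gene start, on the gene's strand, from RefSeq TAIR10.1. D27 is at chr1:711858-712157 (minus strand), CCD7 at chr2:18558585-18558884 (plus), CCD8 at chr4:15827928-15828227 (plus) and BAM5 at chr4:8669527-8669826 (minus). Capitals mark, on either strand, the matches found. The letters searched were CACGTG for the G-box, TGTCTC for the auxin response element and TATAAA for the TATA element of core promoters.
D27: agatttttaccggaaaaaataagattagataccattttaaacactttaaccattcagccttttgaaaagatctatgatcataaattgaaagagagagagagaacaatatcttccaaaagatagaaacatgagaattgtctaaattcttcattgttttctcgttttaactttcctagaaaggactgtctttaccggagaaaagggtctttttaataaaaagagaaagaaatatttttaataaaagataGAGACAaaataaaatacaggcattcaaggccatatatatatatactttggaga
CCD7: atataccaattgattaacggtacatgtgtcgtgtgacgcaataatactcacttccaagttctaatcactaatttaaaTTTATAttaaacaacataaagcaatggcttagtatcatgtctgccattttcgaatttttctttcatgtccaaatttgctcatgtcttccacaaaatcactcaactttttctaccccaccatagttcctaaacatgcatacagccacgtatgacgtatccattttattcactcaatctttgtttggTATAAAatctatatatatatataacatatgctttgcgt
CCD8: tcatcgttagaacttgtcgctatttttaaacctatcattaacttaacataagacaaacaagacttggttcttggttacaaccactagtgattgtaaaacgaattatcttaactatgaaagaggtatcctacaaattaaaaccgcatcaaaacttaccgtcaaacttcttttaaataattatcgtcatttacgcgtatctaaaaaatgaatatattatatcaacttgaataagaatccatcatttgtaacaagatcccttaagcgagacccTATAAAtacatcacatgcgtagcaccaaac
BAM5: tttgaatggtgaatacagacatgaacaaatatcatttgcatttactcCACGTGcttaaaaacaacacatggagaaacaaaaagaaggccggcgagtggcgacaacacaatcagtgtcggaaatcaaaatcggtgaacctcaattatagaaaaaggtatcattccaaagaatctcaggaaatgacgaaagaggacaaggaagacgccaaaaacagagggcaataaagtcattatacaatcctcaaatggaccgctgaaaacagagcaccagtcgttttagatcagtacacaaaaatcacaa
The match in D27 begins at position -53 from the gene start, those in CCD7 at -223 and -38, that in CCD8 at -30 and that in BAM5 at -253. Among all 50 members, CACGTG was in 12% of the promoters, against 8.12% of the promoters of the loci past the floor and 7.09% of all 27431 promoters. TGTCTC was in 14% of members against 12.7% of loci past the floor and 13.0% of all promoters, and TATAAA in 48.0% against 51.3% and 52.8%. The W-box was searched in its form TTGACC and its form TTGACT, which were in 10% and 8.0% of members, against 13.7% and 20.8% of loci past the floor and 14% and 21.9% of all promoters. The GCC-box GCCGCC was in none of the 50, against 2.43% of loci past the floor and 2.26% of all promoters. All 6 motifs were searched on both strands, the W-box forms differ in their last letter, and a match is a description and not a binding site.

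The 3 enzymes act one after the other. D27 isomerises beta-carotene, CCD7 (MAX3) cleaves the product, and CCD8 (MAX4) converts the cleaved molecule to carlactone, the precursor of strigolactones. CCD7 had 6.54, 7.65 and 6.41 CPM in pxf er erl2, 25.1, 21.9 and 24.6 in pxf, 43.4, 48.6 and 48.3 in er erl2, and 46.6, 58.0 and 29.2 in WT. The pxf er erl2 libraries were the lowest 3, and the pxf libraries also lay below all er erl2 and WT libraries. CCD8 had 34.5, 37.3 and 28.0 CPM in pxf er erl2, 105, 95.5 and 99.0 in pxf, 118, 144 and 147 in er erl2, and 131, 151 and 79.6 in WT. D27 was the least abundant, at 2.34, 1.65 and 1.5 CPM in pxf er erl2, 5.13, 3.13 and 5.58 in pxf, 5.78, 7.99 and 9.46 in er erl2, and 4.95, 6.61 and 3.3 in WT. In all 3 genes WT replicate 3 was the lowest WT library. The libraries are of bulk tissue, in which fewer cells of a type and less RNA per cell cannot be told apart.

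**Figure D1:**
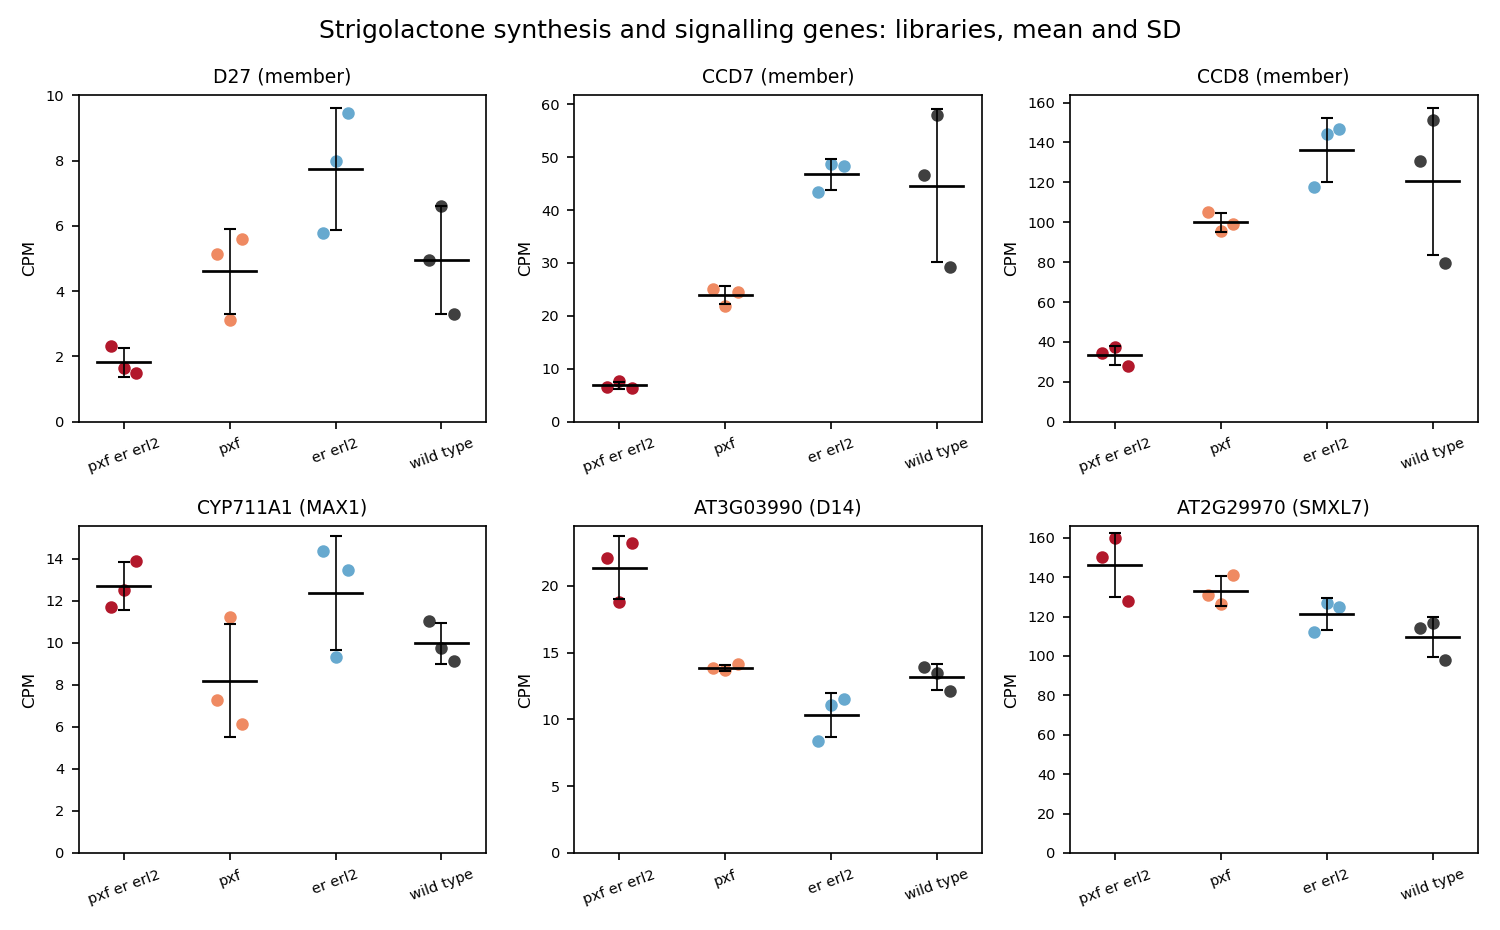
CPM of the members D27, CCD7 and CCD8 and the non-members MAX1, D14 and SMXL7 in each library (points), pxf er erl2 at the left. Lines give the mean and SD of the 3 libraries of each genotype. For D27, CCD7 and CCD8 the pxf er erl2 libraries are below all others, by the rule, and for D14 they are above all others. CCD7 had 6.54, 7.65 and 6.41 CPM in pxf er erl2 against 46.6, 58.0 and 29.2 CPM in WT.

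Between the smaller mutants and WT, which the rule did not contrast with each other although their libraries also had to pass it, CCD7 was lower in pxf with a log2 fold change of -0.89 ± 0.187 (SE) and an adjusted p of 0.0069 in edgeR's quasi-likelihood test (Benjamini-Hochberg over 19236 genes). CCD8 (log2 fold change -0.26, adjusted p = 0.38) and D27 (-0.10, adjusted p = 0.84) did not pass the same edgeR test in pxf. In er erl2 the edgeR log2 fold changes were 0.07 for CCD7 (adjusted p = 0.82), 0.18 for CCD8 (adjusted p = 0.57) and 0.65 for D27 (adjusted p = 0.13). A p above the threshold does not show that the levels were equal.

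CCD8 overlaps the locus AT4G32820, which averaged 54.3 ± 1.41 CPM in pxf er erl2, 51.4 ± 1.6 in pxf, 50.7 ± 2.82 in er erl2 and 49.9 ± 1.82 in WT (SD, n = 3 each), and D27 overlaps AT1G03050, which was below 1 CPM in all genotypes. Among the 50 members, 8 overlap another annotated locus, and whether reads were counted by strand is not given in the sources used here.

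Other strigolactone genes, listed after the members' values were seen, moved in both directions or did not pass the test. MAX1 (CYP711A1), the enzyme that oxidises carlactone, changed by 0.36 ± 0.22 (SE) on the log2 scale (edgeR adjusted p = 0.207) in pxf er erl2 against WT. The receptor gene D14 (AT3G03990) had 22.1, 18.8 and 23.2 CPM in pxf er erl2, 13.8, 13.7 and 14.1 in pxf, 8.42, 11.1 and 11.5 in er erl2, and 13.9, 13.5 and 12.1 in WT. All 3 pxf er erl2 libraries exceeded the other 9, and D14 rose by log2 fold changes of 0.71 (SE 0.12, adjusted p = 0.000644) against WT, 0.63 (adjusted p = 0.00484) against pxf and 1.06 (adjusted p = 3.61e-05) against er erl2 in the edgeR test. SMXL7 (AT2G29970), a repressor degraded upon strigolactone perception, rose against WT (0.43, SE 0.09, adjusted p = 0.002, edgeR), and its value against pxf was 0.15 (adjusted p = 0.316). Of the 11 list genes tested, 4 were called lower and 2 higher in pxf er erl2 than in WT, where 16.4% and 19.9% of all genes were, and 3 of the 4 lower ones are the members themselves. The fourth, KAI2, the karrikin receptor gene, changed by -0.52 (SE 0.18, edgeR adjusted p = 0.0336) and lost the call without pxf er erl2 replicate 1 (adjusted p = 0.138) or replicate 3 (0.0534), or WT replicate 1 (0.136) or replicate 2 (0.119).

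The largest ratio belonged to BAM5 (AT4G15210), a beta-amylase that releases maltose and is found in phloem. BAM5 had 23.4, 35.4 and 71.8 CPM in pxf er erl2, 161, 497 and 265 in pxf, 509, 295 and 357 in er erl2, and 1013, 1263 and 1186 in WT. The 4 genotypes therefore fell into a low group, an intermediate pair that overlapped, and a high group. The lowest of the 3 other means was 7.01 times the pxf er erl2 mean. In pxf against WT the edgeR log2 fold change was -1.90 (SE 0.489, adjusted p = 0.0253), and the call was lost without pxf replicate 1 (adjusted p = 0.0688) or replicate 3 (0.093) and without WT replicate 2 (0.0586) or replicate 3 (0.0634). In er erl2 against WT the log2 fold change was -1.58 (SE 0.484, edgeR adjusted p = 0.0526). Of the other beta-amylase genes 7 were tested, and their log2 fold changes in pxf er erl2 against WT, drawn in the plot of relatives, were all smaller in size than that of BAM5.

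Phloem markers moved with genotype beside BAM5. Their summed level was 1240 to 1547 CPM in pxf er erl2, 1131 to 1260 in pxf, 830 to 939 in er erl2 and 702 to 758 in WT, so it was highest where BAM5 was lowest. The part of these markers in the BAM5 levels was not tested.

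The receptor-like genes included WAK1 (AT1G21250), a pectin-binding receptor kinase of the cell wall. WAK1 had 13.5, 17.5 and 20.06 CPM in pxf er erl2, 67, 73.9 and 66.4 in pxf, 125, 108 and 115 in er erl2, and 115, 104 and 99.0 in WT. The genotypes formed 3 tiers without overlap between them, with er erl2 and WT sharing the top one. WAK1 was lower in pxf than in WT at a log2 fold change of -0.61 ± 0.111 (SE; edgeR adjusted p = 0.00247), and 0.13 was the value in er erl2 (adjusted p = 0.45). Its relative WAK3 was lower in pxf er erl2 than in WT (-3.81, SE 0.58, adjusted p = 0.000299, edgeR) at 0.0778, 0.15 and 0.25 CPM in pxf er erl2 against 3.14, 2.57 and 1.44 in WT, whereas WAK2 had a log2 fold change of 0.18 (adjusted p = 0.524). In pxf against WT, 2 of the 4 wall-associated kinase genes tested, WAK1 among them, were called lower, where 7.97% of all genes were.

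CYP707A2 encodes an abscisic acid hydroxylase, which inactivates that hormone. Its counts summed to 7 over the 3 pxf er erl2 libraries, or 0.234, 0.300 and 0 CPM, against 2.78, 1.90 and 1.55 CPM in pxf, 2.97, 3.51 and 3.27 in er erl2 and 5.42, 5.51 and 4.06 in WT. Every WT library was above every pxf and er erl2 library. The change in pxf against WT was -1.25 (SE 0.301, adjusted p = 0.0115, edgeR), and it lost the call without pxf replicate 3 (adjusted p = 0.0532). Of its 3 paralogs, CYP707A1 (-1.57, SE 0.29, adjusted p = 0.00211) and CYP707A4 (-1.78, SE 0.25, adjusted p = 0.00018) were lower in pxf er erl2 than in WT, and CYP707A3 (0.29, SE 0.27, adjusted p = 0.448) did not pass the edgeR test. In pxf against WT, 3 of these 4 genes, CYP707A2 among them, were also called lower, where 7.97% of all genes were. The median log2 fold change over the 4 was -1.01. In er erl2 against WT the number called was 0, against 18.8% of all genes. In pxf er erl2 against er erl2, 3 were called lower (16.2% of all genes) and 1 higher. The 4 genes summed to 150 to 159 CPM in pxf er erl2, 81.3 to 160 in pxf, 122 to 162 in er erl2 and 172 to 214 in WT.

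**Figure D2:**
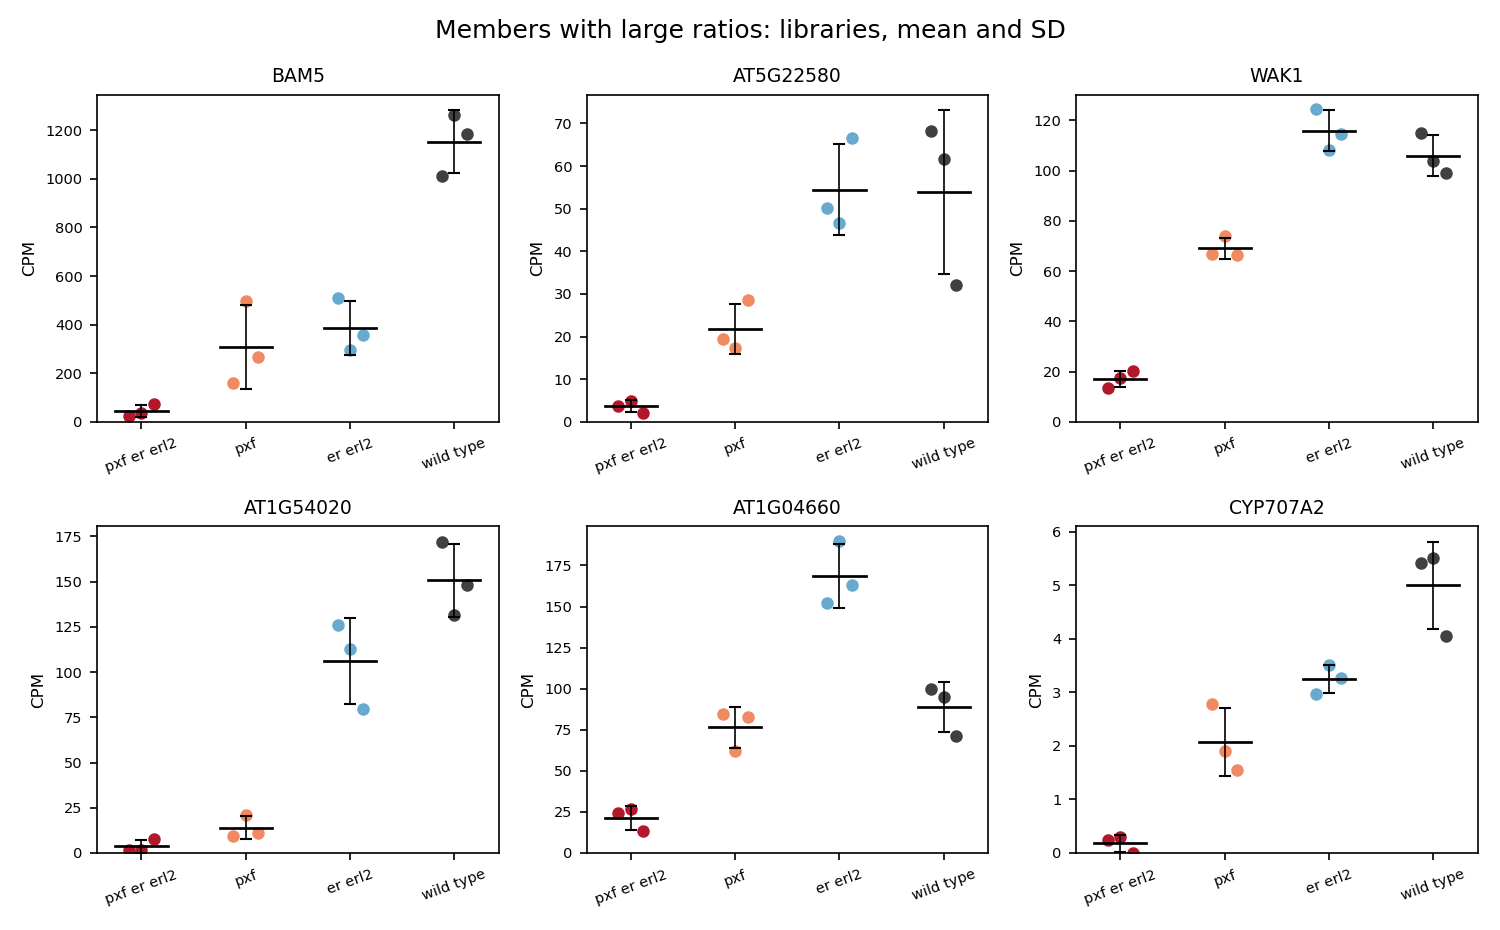
CPM of BAM5, AT5G22580, WAK1, AT1G54020, AT1G04660 and CYP707A2 in each library (points), with the mean and SD of the 3 libraries of each genotype. In pxf er erl2 all 6 genes lie at the foot of their panel, while pxf is near it for AT1G54020 (9.61, 21.1 and 11 CPM in pxf against 172, 132 and 148 CPM in WT).

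Of the 8 receptor and defence genes, WAK1 among them, 6 were called lower and 1 higher in pxf against WT, where 7.97% and 13% of all genes were. Without pxf replicate 1 the counts were 3 and 0. Of all 50 members, 25 were called lower in that comparison, so the lower count is not particular to this group. On the immune response list, which holds no member, 4 of 19 tested genes were called higher and 2 lower in pxf against WT. AT5G22580, a stress-responsive A/B barrel protein, had 3.66, 4.95 and 2.16 CPM in pxf er erl2, 19.5, 17.3 and 28.5 in pxf, 50.2, 46.6 and 66.7 in er erl2, and 68.1, 61.5 and 32.1 in WT. AZI1, a lipid-transfer-like protein of systemic immunity, had 3.11, 10.9 and 8.74 CPM in pxf er erl2, 14.6, 15.8 and 19.9 in pxf, 65.3, 67.6 and 47.9 in er erl2, and 68.4, 75.7 and 57.6 in WT. HR4, a homolog of the resistance protein RPW8, had 0.934, 1.65 and 3.08 CPM in pxf er erl2, 3.28, 6.05 and 4.27 in pxf, 20.2, 20.6 and 12.1 in er erl2, and 20.7, 18.5 and 24.8 in WT. For AZI1 and HR4 most of the distance from WT was already present in pxf, by log2 fold changes of -2.00 (SE 0.297, adjusted p = 0.00142) and -2.22 (SE 0.317, adjusted p = 0.000762) in the edgeR test. AT5G22580 was lower in pxf as well (-1.30, SE 0.304, adjusted p = 0.0142), though the edgeR adjusted p was 0.0571 once pxf replicate 1 was left out.

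Among the lipases, hydrolases and proteases, AT1G54020, a GDSL-type lipase, had 1.56, 1.73 and 7.99 CPM in pxf er erl2, 9.61, 21.1 and 11 in pxf, 126, 113 and 79.6 in er erl2, and 172, 132 and 148 in WT. Its pxf and pxf er erl2 libraries were close, at 9.61 and 7.99 CPM at the nearest. It had the largest fall of any member in pxf against WT, at -3.42 ± 0.458 (SE) on the log2 scale (edgeR adjusted p = 0.0011). PUM21, a Pumilio-type RNA-binding protein, had 0.623, 1.35 and 0.749 CPM in pxf er erl2, 2.42, 1.97 and 2.95 in pxf, 8.25, 6.93 and 6.63 in er erl2, and 10.5, 9.74 and 10.06 in WT, with a pxf change of -2.04 (SE 0.208, adjusted p = 4.92e-05, edgeR).

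Several regulators had pxf levels that overlapped those of WT. NAC103, a transcription factor of the endoplasmic reticulum stress response, had 8.02, 10.4 and 10.9 CPM in pxf er erl2, 28.5, 24.1 and 24.4 in pxf, 26.3, 21.7 and 26.7 in er erl2, and 26.6, 27 and 20.3 in WT, so that the 3 other genotypes overlapped. FAF2, a regulator of shoot meristem size, had 0.156, 0.525 and 0.499 CPM in pxf er erl2, 2.42, 2.11 and 2.02 in pxf, 2.31, 2.61 and 2.21 in er erl2, and 1.71, 2.57 and 1.78 in WT. CRF3, a cytokinin response factor of the AP2/ERF family, had 6.07, 4.58 and 3.83 CPM in pxf er erl2, 11.3, 11.2 and 10.2 in pxf, 13.7, 14.2 and 18.7 in er erl2, and 11.5, 12.3 and 10.2 in WT. Of the 7 transcription factors and regulators, 1 was called lower in pxf, near the 7.97% of all genes. It was the bHLH gene AT1G22490 (-0.58, SE 0.0878, adjusted p = 0.00067, edgeR), and WOX11, known from founder cells of adventitious roots, had a value of -0.54 (adjusted p = 0.13).

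In the families of these regulators, FAF4 had 7.16, 7.42 and 11.6 CPM in pxf er erl2, 17.3, 19.6 and 14.6 in pxf, 24.6, 21.9 and 26.3 in er erl2, and 28.0, 26.3 and 28.9 in WT. Its edgeR log2 fold change in pxf er erl2 against WT was -1.66 (SE 0.17, adjusted p = 1.4e-05). All 3 FAF genes tested and 5 of the 6 CRF genes were called lower in pxf er erl2 than in WT. Of all 19236 genes, 16.4% were called lower in that comparison. The counts include the members FAF2 and CRF3, which the rule had set as lower. The families were listed after the values of these members were seen, so the counts are a description without a test. The edgeR call of CRF5 (-0.73, SE 0.12, adjusted p = 0.000618) held without each library in turn. CRF4 lost its call without pxf er erl2 replicate 2 (adjusted p = 0.0522, edgeR). CRF1 lost its call without pxf er erl2 replicate 1 (adjusted p = 0.119), 2 (0.0543) or 3 (0.0573) or WT replicate 1 (0.0678) or 2 (0.166). The count of CRF genes called lower was 3 without pxf er erl2 replicate 2. In pxf against WT, 1 of the 3 FAF and 1 of the 6 CRF genes were called lower, where 7.97% of all genes were. The same counts were found in er erl2 against WT, where 8.44% of all genes were called lower.

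**Figure D3:**
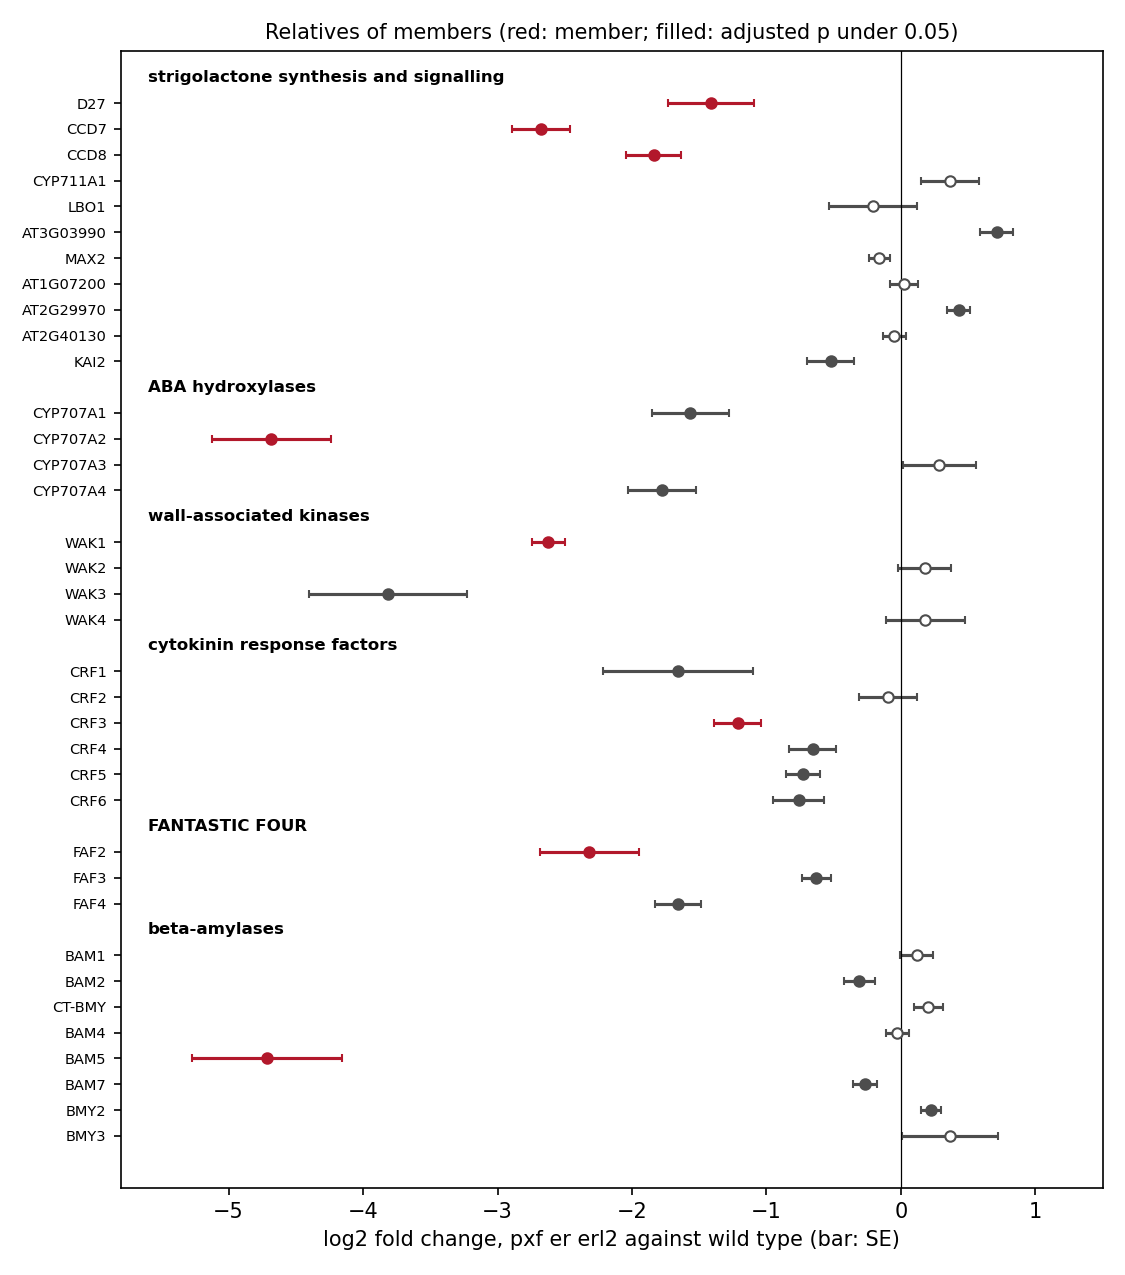
Log2 fold change of pxf er erl2 against WT (x axis, bar the SE) for members, in red, and the other genes of their families or pathway, with filled points where the adjusted p is under 0.05. Members lie left of most relatives, where the rule placed them by asking for a WT mean at least 2 times theirs. WAK3 (-3.81) and FAF4 (-1.66) are among the relatives that were also lower.

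Of 9 members in the cell wall and carbohydrate group, 4 were called lower and 1 higher in er erl2 against WT, where 8.44% and 10.3% of all genes were. These were AT5G01075, GH9B18, XTH16 and ELP on the lower side and AT1G04660 on the higher. The lower count was 1, 2 and 2 without er erl2 replicates 1, 2 and 3, 2 and 1 without WT replicates 1 and 2, and between 4 and 6 without any other library. In pxf against WT 5 of the 9 were called lower, where 7.97% of all genes and 25 of all 50 members were, and 3 without WT replicate 2. AT5G01075, annotated as a glycosyl hydrolase, had 2.1, 2.17 and 1.75 CPM in pxf er erl2, 3.85, 5.71 and 4.58 in pxf, 4.21, 4.73 and 5.84 in er erl2, and 9.04, 8.63 and 11.9 in WT. Both smaller mutants lay below every WT library, with log2 fold changes of -1.06 (adjusted p = 0.0024) in pxf and -1.01 (SE 0.196, adjusted p = 0.00342) in er erl2 by the edgeR test. XTH16, which cuts and rejoins xyloglucan, had 15.9, 19.1 and 21.2 CPM in pxf er erl2, 56.6, 53.7 and 49.2 in pxf, 67.2, 66.1 and 83.7 in er erl2, and 88.9, 111 and 94.8 in WT.

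AT1G04660, a glycine-rich protein, was in contrast higher in er erl2. It had 24.1, 26.5 and 13.2 CPM in pxf er erl2, 84.7, 62.1 and 82.5 in pxf, 152, 190 and 163 in er erl2, and 99.8, 94.7 and 71.5 in WT. All er erl2 libraries exceeded those of the other genotypes, by a log2 fold change of 0.93 against WT (SE 0.215, adjusted p = 0.0143, edgeR), a call lost without er erl2 replicate 2 (adjusted p = 0.0507) or WT replicate 3 (0.054). The jacalin lectin gene AT1G33790 was the 1 member called higher in pxf than in WT (0.70, SE 0.173, adjusted p = 0.013, edgeR), with 31.0, 19.9 and 24 CPM in pxf against 14.5, 19.2 and 12.5 in WT, and that call was lost without pxf replicate 1 (0.0575) or WT replicate 3 (0.0513).

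ELP, an extensin-like protein, was the most abundant member per transcript length in WT, at 233 CPM per kb in pxf er erl2, 511 in pxf, 472 in er erl2 and 548 in WT. It had 270, 295 and 268 CPM in pxf er erl2, 613, 597 and 619 in pxf, 521, 598 and 570 in er erl2, and 639, 688 and 636 in WT. Its neighbour AT1G12080, a calcium-binding-like vacuolar protein, had 54.6, 54.0 and 23.8 CPM in pxf er erl2, 146, 98.7 and 149 in pxf, 242, 242 and 327 in er erl2, and 258, 224 and 184 in WT. These 2 genes, 4.48 kb apart on chromosome 1, were the only pair of members within 10 loci of each other. AT2G26440, annotated only to the plant invertase/pectin methylesterase inhibitor superfamily, lies 32.5 kb from ER. The next nearest to a mutated gene, BCAT-1 and PXL1, are 561.79 kb apart.

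The transport genes were ABCG4, an ABC transporter, UMAMIT8, of the EamA-like amino acid transporter family, and AT3G20460, a major facilitator protein. ABCG4 had 0.856, 2.1 and 1.08 CPM in pxf er erl2, 6.84, 3.47 and 6.36 in pxf, 8.99, 7.42 and 9.9 in er erl2, and 7.99, 8.08 and 8.8 in WT. AT3G20460 was lower in pxf than in WT (-0.66, edgeR adjusted p = 0.0063), while ABCG4 (-0.58, adjusted p = 0.13) and UMAMIT8 (-0.83, adjusted p = 0.054) did not pass the edgeR test. In amino acid metabolism, MGL breaks down methionine, BCAT-1 acts on branched-chain amino acids and GAD3 makes GABA from glutamate. MGL had 9.65, 14.3 and 18.8 CPM in pxf er erl2, 25.7, 39.5 and 28.5 in pxf, 47.3, 29.5 and 42.3 in er erl2, and 54.1, 71.3 and 94.1 in WT, so that all mutant libraries lay below WT.

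AGO6, an Argonaute protein of RNA-directed DNA methylation, had 28.8, 31.3 and 28.2 CPM in pxf er erl2, 73.1, 56.8 and 65.8 in pxf, 62.6, 51.5 and 69.95 in er erl2, and 81.8, 74.6 and 92.9 in WT. The smaller mutants overlapped each other and lay below every WT library. CALS5, a callose synthase, had 2.41, 2.77 and 2.25 CPM in pxf er erl2, 6.34, 5.91 and 7.6 in pxf, 6.68, 7.75 and 6.1 in er erl2, and 6.95, 8.91 and 5.67 in WT, with overlap among those 3 genotypes. AT2G30230, annotated as a lumazine synthase, had 1.09, 1.43 and 1.5 CPM in pxf er erl2, 4.77, 6.66 and 4.65 in pxf, 8.42, 6.2 and 9.2 in er erl2, and 13.8, 13.9 and 16.3 in WT. It was lower in pxf (log2 fold change -1.44, adjusted p = 0.00023) and in er erl2 (-0.89, adjusted p = 0.0045) than in WT by the edgeR test. Over all 50 members, group means ran between 0.178 and 278 CPM in pxf er erl2, 2.08 and 609.7 in pxf, 2.38 and 563 in er erl2, and 2.02 and 1154 in WT, and all 50 are protein-coding.

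Counted over all 50, the label of loci lowered only in the quintuple mutant was not borne out, since many were lower in pxf too. In pxf against WT, 25 were called lower and 1 higher (edgeR, adjusted p under 0.05), when 7.97% of all 19236 genes were called lower and 13% higher, 21% in all. Their median log2 fold change was -0.58, against 0.01 for all genes. In er erl2 against WT, 8 were called lower and 3 higher, where 8.44% and 10.3% of all genes were, 18.8% together, and the median was -0.01. Those called higher were AT1G04660, AT5G10760 (log2 fold change 1.01, edgeR adjusted p = 0.0384) and AT5G22460 (0.41, adjusted p = 0.0145). AT5G10760 lost its call in 9 refits that each left out 1 library, and AT5G22460 in 2. The er erl2 count was 5, 4 and 6 without er erl2 replicates 1, 2 and 3, and 5 and 6 without WT replicates 2 and 3, against 11 with all libraries. In er erl2 against pxf, 23 were called higher and 1 lower (background 12.2% and 14.1%, or 26.3% together), and 14 were called without pxf replicate 1. The 3 comparisons share libraries with one another, so their values are given side by side.

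**Figure D4:**
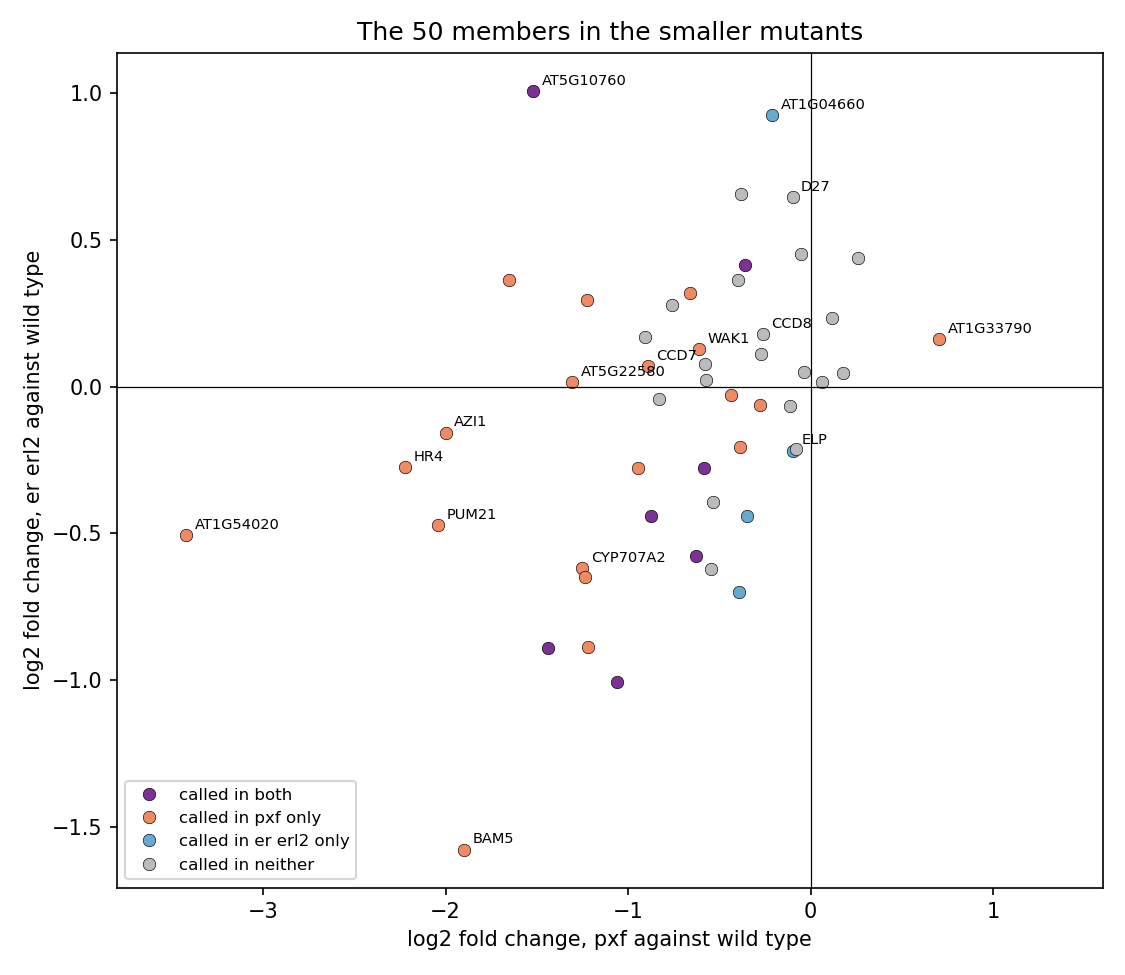
Log2 fold change of the 50 members in pxf against WT (x axis) and in er erl2 against WT (y axis), which share the WT libraries. Colour shows in which of these comparisons the adjusted p is under 0.05; most points lie left of 0 on the x axis, where 25 were called lower, and are spread around 0 on the y axis.

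Relative to WT, the median ratio of group means was 0.265 in pxf er erl2, 0.694 in pxf and 0.996 in er erl2. The lowest of the 3 other genotypes was pxf in 40 members, er erl2 in 5 and WT in 5, whereas pxf was lowest in 35.8% of the 16454 loci past the floor. The ratio of the lowest other mean to the pxf er erl2 mean had a median of 2.42 and ran up to 7.01, and 10 members reached 3. Just inside the threshold were ELP (2.03), FER2 (2.03) and AT1G33790 (2.05), and just outside it AT1G77330 (1.98), AT1G22980 (1.96) and AT1G77270 (1.95). AT5G03545 and TAT3 passed the floor and the ratio but had overlapping libraries. For the contrasts that the rule used, the edgeR calls are given as description: 50 members were called lower against WT (background 16.4%), 46 against pxf (5.41%) and 50 against er erl2 (16.2%). The interaction of the pxf and er erl2 genotypes was called negative in 35 (4.8%).

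**Figure D5:**
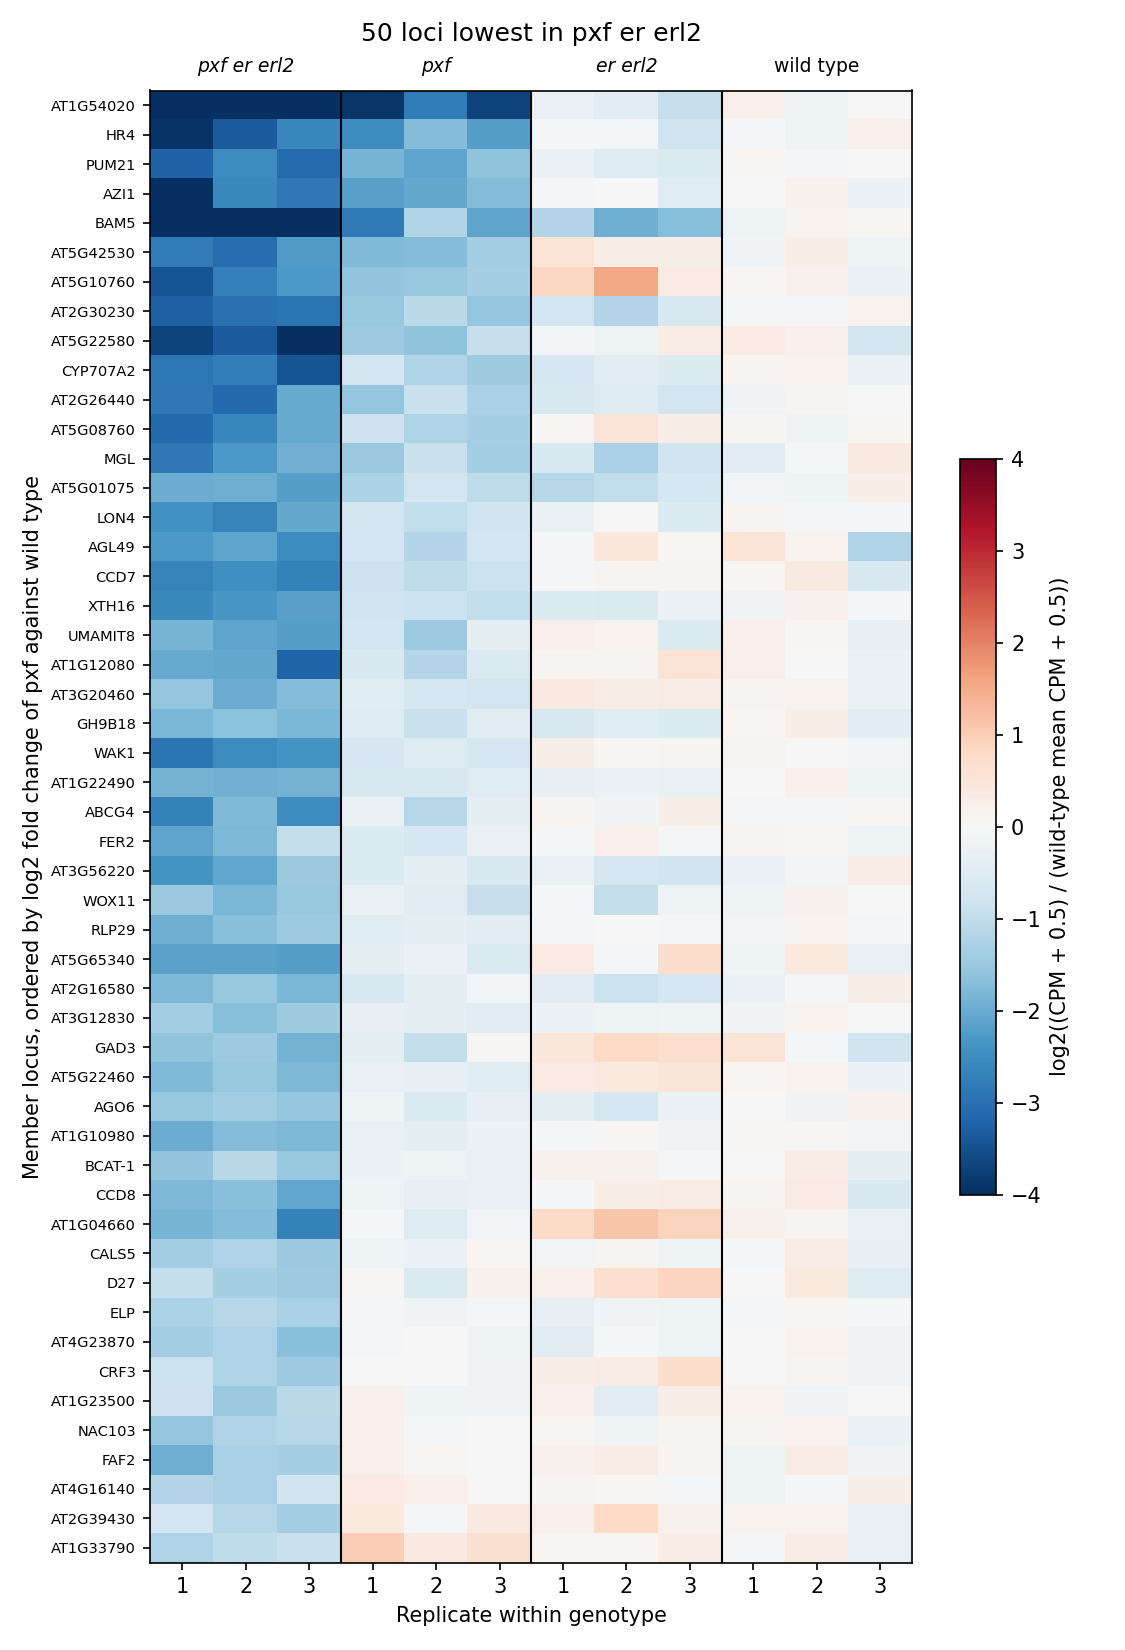
Log2 ratio of each library's CPM to the WT mean (colour, 0.5 added, clipped at the ends of the scale) for the 50 members (rows) and 12 libraries (columns, pxf er erl2 at the left, WT at the right). The pxf er erl2 columns are the lowest in every row, by the rule, and pxf is intermediate in many.

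The dependence on single pxf er erl2 libraries was read by choosing the loci without one and looking at that library. The 9 other-genotype libraries were used in each choice, and the loci past the floor were not chosen in this way. The shares below are therefore a description and not an independent test of the selection. Chosen without replicate 1, 48 loci passed, and replicate 1 was below all 9 other-genotype libraries in 46 of them (95.8%, against 19.0% of the loci past the floor). Chosen without replicate 2, 56 passed, and replicate 2 was below in 53 (94.6%, against 21.1%). Chosen without replicate 3, 82 passed, and replicate 3 was below in 55 (67.1%, against 18.9%), so that replicate limited the number most. These shares cover only the part of the rule on overlap of libraries. The ratio read with the left-out library was at least 2 in 36 of the 48 loci for replicate 1. It was at least 2 in 37 of the 56 for replicate 2 and in 33 of the 82 for replicate 3. The median ratios were 2.4988, 2.2717 and 1.7242 in that order, the last below the threshold of 2.

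Tissue markers differed between genotypes beside these loci, and their part in the results was not tested. Green leaf markers, 22 genes, summed to 8419 to 13370 CPM in pxf er erl2, 8181 to 11033 in pxf, 5847 to 6477 in er erl2 and 2770 to 3827 in WT, and all 22 were called higher in pxf er erl2 than in WT, as were 19.9% of all genes. Xylem secondary wall markers summed to 1720 to 1852 CPM in pxf er erl2, 1724 to 1774 in pxf, 2519 to 4307 in er erl2 and 2261 to 2582 in WT. Endodermis markers summed to 39.6 to 49.0 CPM in pxf er erl2, 27.8 to 30.0 in pxf, 182 to 496 in er erl2 and 186 to 343 in WT. That sum was carried by PER64, at 22.8, 12.3 and 24.4 CPM in pxf er erl2 against 274, 172 and 332 in WT, while of the 5 endodermis genes tested 2 were called higher and 1 lower in pxf er erl2, with a median log2 fold change of 0.80. The pxf er erl2 and pxf ranges overlapped for 6 of the 7 marker lists. Of the markers on these lists, 2 were at 0 in every library, and none of the 308 loci matched on the 16 lists was a member.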

How the data were processed

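RNA-seq libraries of 12 samples were used. The values are raw read counts per gene, deposited by the authors as whole numbers. Per the submitters' processing notes, HISAT2 2.0.5, featureCounts 1.5.0-p3 and build TAIR10 were used, with no role given to each, and the strand setting is not given in the sources used here. From the counts, CPM was computed over the library's summed counts, and edgeR 4.0.16 (R 4.3.3) fitted all 12 libraries with TMM scaling, filterByExpr and the robust quasi-likelihood test, tested on simulated data. It tested 19236 genes, all 50 members among them, with Benjamini-Hochberg adjustment and a threshold of 0.05. The biological coefficient of variation was 11.6%. Gene symbols, exonic lengths and promoter sequences are from RefSeq TAIR10.1.

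The members and lists were chosen with earlier results of these data known, and the families of members were listed after their values were seen. Members to name were the 12 with the largest ratio, the 8 highest in WT and members on a list or beside another. Further ones were the 4 largest rises and falls called in er erl2 and in pxf against WT, and those nearest the threshold. Of these, AT5G65340 and AT2G16580 are not described above, and AT5G10760 and AT5G22460 only by their er erl2 calls. Others named were chosen after their values were seen. Genes of the tissue and pathway lists that are not members are given as sums and counts, except PER64, and relatives of members singly. Alternatives were DESeq2 1.42.0, other floors and ratios, a replicate block and leaving out each library. The p-values measure the spread between samples labelled as biological replicates. Counting precision follows from 10507590 to 14716123 counts per library.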

Additional observations from a re-analysis of the deposited data

Results flagged for a closer look

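The interaction compares the effect of er erl2 between the PXY-family backgrounds. The rule favoured a negative interaction by placing pxf er erl2 below the other genotypes, and all 50 members had a negative estimate. The interaction of the pxf and er erl2 genotypes was negative and called in 35 of the 50 members (edgeR, adjusted p under 0.05), where 4.8% of all genes tested had a called negative interaction. The rule chose these loci on the same libraries, so the count is a description and gives no support of its own.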

How the results depend on the processing

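The number of members was 165 with a ratio of 1.5 and 10 with a ratio of 3, and 46 to 82 when 1 library was left out, the 82 being without pxf er erl2 replicate 3. It stayed within 1.5 times of 50 under the other floors, additions and scalings tried. Leaving out 1 library gave 4 to 15 members called in er erl2 against WT, 20 to 28 in pxf against WT, 14 to 25 in er erl2 against pxf, 50 to 50 lower in pxf er erl2 against WT and against er erl2, 39 to 47 lower against pxf, and 30 to 36 with a called negative interaction. Samples with the same replicate number did not deviate together more than others (median correlation -0.05 over 18 pairs, against 0.03 over 36 pairs of other numbers). With 3 libraries per genotype, these correlations cannot decide whether the numbers pair the samples. With the replicate block, 9 members were called in er erl2 against WT, 27 in pxf against WT and 18 in er erl2 against pxf, against 11, 26 and 24 without it. DESeq2 called 14, 29 and 26. Over the named genes and their relatives, 686 of 792 recomputed values kept their call, 106 lost it and 0 reversed. The 792 pool refits without a library of the compared genotypes and refits without a library of another genotype. The share kept is therefore not that for leaving out compared libraries alone. Loci near 2 CPM rest on few counts, such as the 7 of CYP707A2 in pxf er erl2.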
